A study of Arabidopsis thaliana with 58 samples.

Results

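The WRKY transcription factors described here were 42 listed loci of Arabidopsis thaliana ecotype Columbia-0, taken from 72 loci that the annotation names WRKY and from 23898 genes present in the deposited tables together. The members were given as a list of loci, which was drawn up with earlier results of these data known. A member entered a test where its mean signal in a table was at least 5, the signal being the authors' read count adjusted to a common library size within each table. RNA was sequenced from mature leaves (the first pair of rosette leaves) and expanding leaves (the next pair) after 3, 5 and 8 days without magnesium, and from roots after 3 days, when the plants were 13, 15 and 18 days old. All plants were of the same wild-type ecotype and were grown hydroponically in MGRL nutrient solution. The Mg-deficient groups received 0 mM Mg, with sodium sulphate in place of magnesium sulphate, and the control groups 1.5 mM Mg. Mature leaves had 3 Mg-deficient and 4 control libraries at day 3, 3 and 5 at day 5, and 4 and 4 at day 8. Expanding leaves had 4 Mg-deficient and 5 control libraries at day 3, 3 and 5 at day 5, and 5 and 4 at day 8, and roots had 3 and 6. Each replicate pooled a few plants, and libraries of different tissues on the same day may share plants. The comparison asked which WRKY genes responded to Mg deficiency, in which leaf and on which day.

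WRKY proteins are a plant family of transcription factors that bind DNA through a conserved domain of the same name, which holds a zinc finger. Most recognise the W-box, a short motif with a TTGAC core, which is also present upstream of many WRKY genes, so that members can regulate one another and themselves. In leaves they are best known for roles in immunity, salicylic acid and jasmonate signalling, responses to reactive oxygen species, phosphate starvation and senescence, and several are phosphorylated by MAP kinases or bound by VQ-motif proteins. The family is divided by domain number and finger type into group I, groups IIa to IIe and group III.

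The annotated proteins matched these groups. The 8 group I members carried 2 WRKY domains and the other 34 carried 1, and the 9 members with the C2HC type of finger were those listed as group III. The list also held 3 members of group IIa, 4 of IIb, 8 of IIc, 6 of IId and 4 of IIe. To show the motif that the family binds, the 300 bases before the annotated gene start were taken from the TAIR10.1 assembly for 4 members described below, and W-boxes (TTGACC or TTGACT on either strand, so also GGTCAA or AGTCAA) are in capitals. WRKY33 (AT2G38470, chr2:16107935-16108234, plus strand) had 3 W-boxes, which began 292, 96 and 32 bases before the gene start. WRKY30 (AT5G24110, chr5:8154711-8155010, minus strand) had 3, at 124, 69 and 61 bases. WRKY53 (AT4G23810, chr4:12393983-12394282, minus strand) had 2, at 219 and 71 bases. WRKY46 (AT2G46400, chr2:19044956-19045255, minus strand), which was among the members with the greatest fold changes, had 0 in this window.
WRKY33: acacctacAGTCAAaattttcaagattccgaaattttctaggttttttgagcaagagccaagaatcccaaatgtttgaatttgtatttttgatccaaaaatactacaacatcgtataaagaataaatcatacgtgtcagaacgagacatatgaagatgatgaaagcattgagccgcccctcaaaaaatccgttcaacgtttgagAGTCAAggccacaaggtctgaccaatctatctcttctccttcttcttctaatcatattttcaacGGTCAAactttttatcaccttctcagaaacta
WRKY30: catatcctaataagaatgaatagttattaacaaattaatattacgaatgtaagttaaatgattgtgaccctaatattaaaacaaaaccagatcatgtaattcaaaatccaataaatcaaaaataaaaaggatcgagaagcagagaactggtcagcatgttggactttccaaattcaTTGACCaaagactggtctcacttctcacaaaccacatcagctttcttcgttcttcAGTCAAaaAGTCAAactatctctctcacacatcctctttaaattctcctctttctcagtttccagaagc
WRKY53: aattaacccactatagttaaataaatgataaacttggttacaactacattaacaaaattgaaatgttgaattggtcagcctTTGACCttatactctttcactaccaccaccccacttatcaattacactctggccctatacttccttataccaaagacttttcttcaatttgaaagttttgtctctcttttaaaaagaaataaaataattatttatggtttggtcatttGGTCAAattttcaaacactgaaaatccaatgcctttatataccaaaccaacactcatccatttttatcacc
WRKY46: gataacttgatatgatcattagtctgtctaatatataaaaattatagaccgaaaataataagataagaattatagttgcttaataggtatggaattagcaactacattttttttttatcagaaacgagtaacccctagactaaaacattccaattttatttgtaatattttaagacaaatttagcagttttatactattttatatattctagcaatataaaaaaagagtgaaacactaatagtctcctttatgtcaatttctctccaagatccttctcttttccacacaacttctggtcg

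A W-box was present in 20 of the 42 WRKY promoters (47.6%), against 8855 of 27443 promoters of the same length over the protein-coding genes (32.3%). At least 2 W-boxes were present in 9 WRKY promoters (21.4%), against 7.9% of those promoters. By group, a W-box was found in 5 of 9 promoters of group III, 5 of 8 of IIc, 4 of 6 of IId, 4 of 8 of I, 1 of 4 of IIb, 1 of 4 of IIe and 0 of 3 of IIa. Of the 24 members that were higher in Mg-deficient expanding leaves at day 8, 12 had a W-box, and of the other 18 members 8 had one. These are matches of letters only, and the counts are given without a test. No stretch of 50 bases was shared between the transcripts of any members. The 9 loci WRKY1, WRKY2, WRKY4, WRKY29, WRKY33, WRKY40, WRKY41, WRKY53 and WRKY69 overlap a gene on the opposite strand by 26 to 517 bases. The libraries were strand-specific, but the strand setting of the counting was not given in the sources used here, so reads in those overlaps may come from either gene.

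The libraries held 545998 to 4014874 reads, with a median of 1964031. At day 8 of mature leaves control libraries 2 to 4 held fewer detected genes than any Mg-deficient library: a read was found for 12541 to 17029 genes in the Mg-deficient libraries, against 14557, 7907, 6908 and 9697 genes in control libraries 1 to 4. In expanding leaves at day 8 the ranges were 18422 to 18718 genes in Mg-deficient and 12275 to 15172 genes in control libraries, and at day 5 Mg-deficient library 1 held 12656 genes, fewer than any other library of that table. The tissue labels were checked with marker genes. In leaves the summed signal of 8 root markers was 0.548 to 193 per library, with IRT1 and EXPA7 without a read in any leaf group. In roots these summed to 2734 to 3809 in Mg-deficient and 2744 to 3316 in control libraries, and the 6 mesophyll markers summed to 22.97 to 88.6 in Mg-deficient and 39.97 to 759.9 in control libraries. Leaf mesophyll markers moved with the treatment at day 8 of expanding leaves, where 6 of 6 were lower and their summed signal was 15070 to 28590 in Mg-deficient libraries, against 71760 to 85490 in control libraries. At day 8 of mature leaves 2 of 6 were lower, with sums of 20150 to 32830 in Mg-deficient and 30970 to 37210 in control libraries. At day 5 of expanding leaves 2 of 6 mesophyll markers were higher, CAB3 (log2 fold change 1.04) and LHCB3 (0.75), and PSBO1 was lower (−1.22), with sums of 44180 to 123500 in Mg-deficient and 86050 to 122800 in control libraries. SCR, listed as a root marker but with a signal of 34.1 to 53.7 in these control leaves, was also lower there (−2.50). The root markers summed to 0.548 to 23.2 in Mg-deficient and 43.2 to 82.5 in control libraries, mostly from SCR, so this sum follows a gene that is read in leaves. In expanding leaves at day 8, 1 of 4 phloem companion and guard cell markers was also lower. The part of these shifts in the WRKY values was not tested, and in whole organs fewer cells of a type and less RNA per cell cannot be told apart.

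Of the 42 members, 21 passed the signal minimum in every table, and WRKY41 and WRKY62 passed in none. Tested, below the minimum and without an entry were 30, 11 and 1 members in mature leaves at day 3, 33, 6 and 3 at day 5, and 33, 9 and 0 at day 8. The same counts were 27, 10 and 5 in expanding leaves at day 3, 31, 9 and 2 at day 5, 35, 5 and 2 at day 8, and 31, 11 and 0 in roots. WRKY29, WRKY65 and WRKY72 passed only in roots, WRKY31 only in mature leaves at day 8 and WRKY28 only in expanding leaves at day 8. Close to the minimum, WRKY28 had a mean signal of 5.22 and WRKY41 one of 4.23 in expanding leaves at day 8, and at day 5 WRKY60 had 6.82 and WRKY48 had 4.85. In mature leaves at day 8 WRKY31 had 6.25 and WRKY55 had 3.54.

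Over the 7 tables, 25 members were higher in Mg-deficient plants in at least 1 table, 1 member (WRKY1) was lower in 1 table, and 16 were called in no table, of which 14 were tested somewhere. Single tables had 0.0 to 30.8% of all genes called higher and 0.0 to 14.9% called lower. The share of all genes called in at least 1 table is not given here. A call is an adjusted p under 0.05 over all genes of a table (limma on log2 of signal plus 1, Benjamini-Hochberg), and every log2 fold change below is on that scale, which understates changes of weakly expressed genes. Levels are not comparable between genes or between tables, because the signal was not divided by length and each table was normalised on its own.

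**Figure D1:**
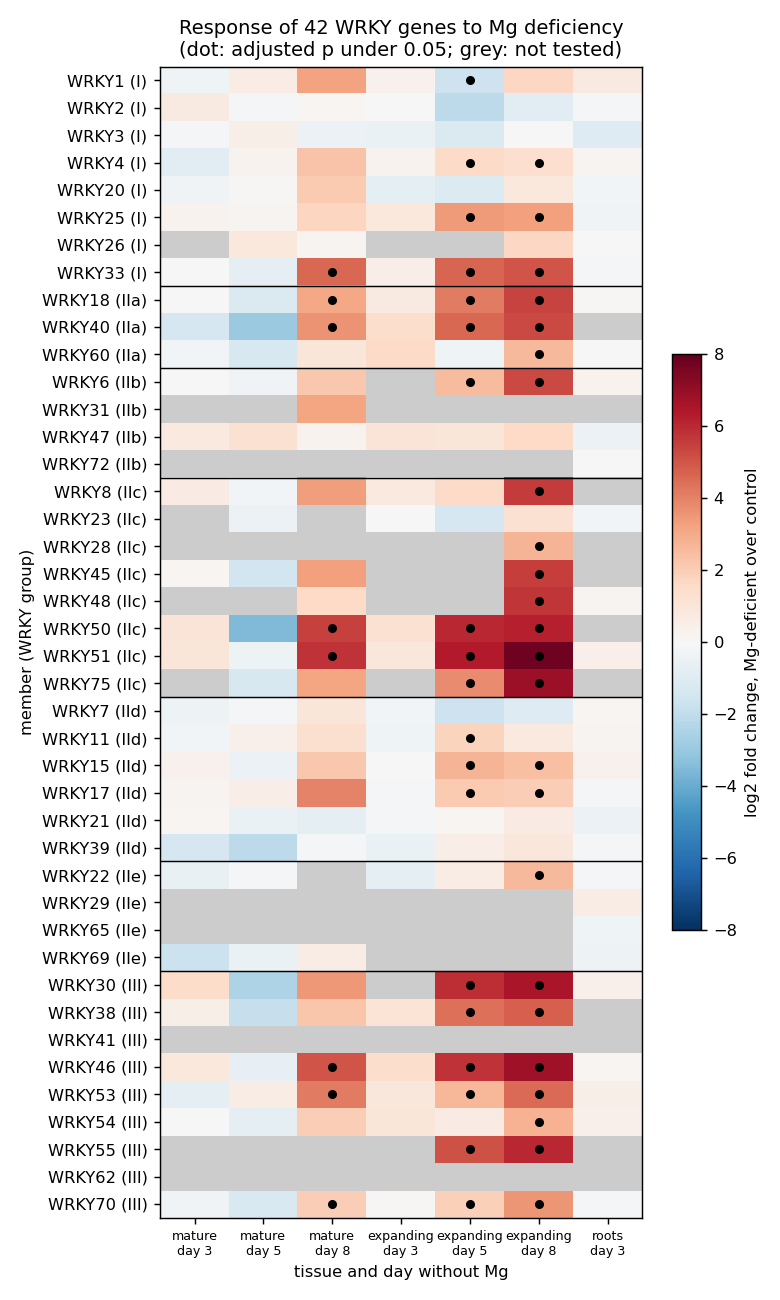
Log2 fold change (Mg-deficient over control) of the 42 WRKY members, in order of WRKY group, in each tissue and day; dots mark an adjusted p under 0.05 and grey marks members that were not tested. The dots lie in 3 columns: 8 in mature leaves at day 8, 19 in expanding leaves at day 5 (of which WRKY1 is lower) and 24 in expanding leaves at day 8.

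The 42 members together took a small share of the reads. In expanding leaves at day 8 it was 25.1 to 55.4 reads per 10000 in Mg-deficient libraries, with a median of 36.4, against 3.03 to 6.71, with a median of 4.76, in control libraries. At day 5 the 3 Mg-deficient expanding-leaf libraries ranged from 19.99 to 47.8 with a median of 24.3, and the 5 control libraries ranged from 4.03 to 5.91 with a median of 5.21. In mature leaves at day 8 the range was 12.6 to 31.0 per 10000 reads in Mg-deficient and 3.24 to 8.16 in control libraries. The groups did not overlap in these 3 tables, and overlapped in the other 4. The medians at day 3, Mg-deficient first, were 10.4 and 10.6 in mature leaves, 8.70 and 6.90 in expanding leaves, and 8.62 and 9.10 in roots. In mature leaves at day 5 the Mg-deficient median was 6.94 and the control median 10.9.

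**Figure D2:**
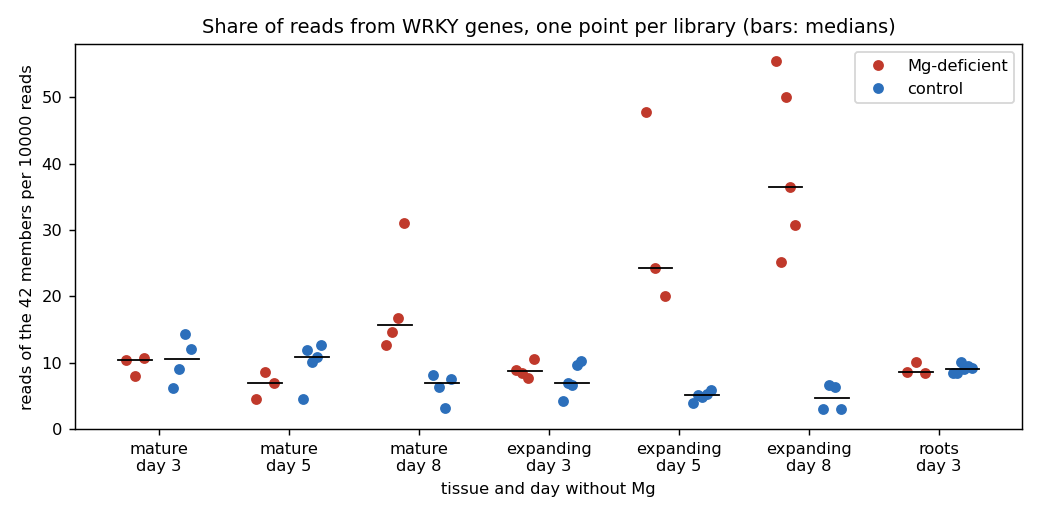
Reads assigned to the 42 WRKY members per 10000 reads in each library (points) with the group median (bars), Mg-deficient to the left of control in each tissue and day. The Mg-deficient points lie above every control point in mature leaves at day 8 and in expanding leaves at days 5 and 8.

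At day 3 no member was called in any tissue. In expanding leaves, where 0.17% of all genes were called higher and 0.0589% lower, an unadjusted p under 0.05 was reached by 6 members that were higher and 0 that were lower, against 4.53% and 3.44% of all genes, and limma-voom on recovered reads also called 0. WRKY46, a regulator of defence and of responses to drought and senescence signals, was the first of them. Its signal was 84.3, 32.5, 102 and 84.6 in Mg-deficient expanding leaves, against 10.3, 63.5, 21.6, 29.8 and 25.2 in control leaves, and the groups overlapped through Mg-deficient library 2 and control library 2. Its log2 fold change was 1.42 ± 0.42 (SE, n = 4 and 5; adjusted p = 0.248, limma). The others were WRKY50, WRKY51, WRKY25, WRKY18 and WRKY38, with log2 fold changes of 0.69 to 1.19. The median over the 27 tested members was 0.33, beside 0.03 over all genes.

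WRKY33, which directs camalexin synthesis and resistance to necrotrophic fungi as a substrate of MPK3 and MPK6, had a signal of 20.8, 14.7, 36.4 and 36.6 in Mg-deficient expanding leaves at day 3, against 9.91, 16.9, 10.8, 23.8 and 35.6 in control leaves. WRKY70 (AT3G56400), at the node between salicylic acid and jasmonate signalling, had 650.4, 666.5, 518 and 992 in Mg-deficient leaves, against 288, 561, 632, 1032 and 1159 in control leaves. For both genes the groups overlapped widely at this day. In mature leaves at day 3, where 0.0% of genes were called in either direction, 0 of 30 members were called, 0 reached an unadjusted p under 0.05 (1.25% of all genes higher and 2.02% lower did) and limma-voom called 0, with a median log2 fold change of 0.00. In roots 0 of 31 members were called, beside 0.0887% of genes higher and 0.112% lower, the median was −0.01, and limma-voom called 0. At an unadjusted p under 0.05, WRKY1 was higher in Mg-deficient roots (0.74 ± 0.26, adjusted p = 0.273, limma) and WRKY3 (−1.01 ± 0.34, adjusted p = 0.263), WRKY65, WRKY69 and WRKY21 were lower, against 4.81% and 6.12% of all genes at that threshold. WRKY1 and WRKY3 belong to group I, and WRKY65 and WRKY69 to group IIe.

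In expanding leaves at day 5, 18 of 31 tested members rose and WRKY1 fell, where 13.7% of all genes were called higher and 14.8% lower. The median log2 fold change of the members was 1.89 and that of all genes −0.34. WRKY8, WRKY30, WRKY38, WRKY40, WRKY55 and WRKY75 passed the signal minimum through the Mg-deficient libraries alone. Among the 25 members with a mean of at least 5 in both groups, 13 rose and 1 fell, where 12.3% and 12.2% of such genes did, and their median was 1.52. The Mg-deficient and control libraries did not overlap, with Mg-deficient higher, for 18 of the 31 members and for 16.1% of all genes.

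Group III, the group with the C2HC finger, had 6 of 7 tested members higher. Among the 4 with a mean of at least 5 in both Mg-deficient and control libraries, 3 were higher. WRKY46 had a signal of 529.5, 468 and 491 in Mg-deficient expanding leaves, against 8.62, 9.45, 2.17, 13.9 and 10.4 in control leaves. The lowest Mg-deficient library was thus far above the highest control library, and the log2 fold change was 5.81 ± 0.48 (SE, n = 3 and 5; adjusted p = 2.8e-05, limma). WRKY70 had a signal of 1987, 1390 and 1211 in Mg-deficient leaves, against 249, 427, 330.5, 539.7 and 560 in control leaves, and rose by 1.89 ± 0.31 on the log2 scale (adjusted p = 0.00167, limma), also without overlap. WRKY53, a regulator of leaf senescence, WRKY30, which is induced by reactive oxygen species, and WRKY38, a negative regulator of basal defence, rose by 2.68, 5.92 and 4.4 on the log2 scale. WRKY55 had 108 reads in Mg-deficient and 1 read in control libraries, a ratio of 204 after scaling to depth, with a 95% exact interval of 35.9 to 8140 that covers counting error only. WRKY54, which acts with WRKY70 in salicylic acid signalling and senescence, was not called (0.64 ± 0.41). WRKY54 and WRKY55 lie next to each other on chromosome 2, with 919 bases between their convergent ends.

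In group IIa, whose members act in partly redundant ways in immunity and abscisic acid signalling, 2 of 3 rose. Among the 2 with a mean of at least 5 in both Mg-deficient and control libraries, 1 rose. WRKY18 (AT4G31800) had a signal of 854, 539 and 356 in Mg-deficient leaves, against 15.3, 37.8, 26.4, 25.7 and 55.1 in control leaves, with a log2 fold change of 4.17 ± 0.42 (adjusted p = 8.9e-05, limma). WRKY40 (AT1G80840) rose by 4.62 ± 0.73, whereas WRKY60 was at −0.33 ± 0.68 and was not called. The libraries of both WRKY18 and WRKY40 were fully separated by treatment.

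In group IIc 3 of 5 tested members rose. Among the 3 with a mean of at least 5 in both Mg-deficient and control libraries, 2 rose. WRKY50 (AT5G26170), which represses jasmonate responses together with WRKY51, had a signal of 903, 533 and 347 in Mg-deficient leaves, against 20.1, 11.2, 6.50, 3.94 and 3.21 in control leaves (6.05 ± 0.56, adjusted p = 5.3e-05, limma). WRKY51 (AT5G64810) had 772, 482 and 324 in Mg-deficient leaves, against 4.37, 1.49, 13.8, 8.91 and 3.18 in control leaves (6.35 ± 0.59, adjusted p = 5.3e-05, limma). Both were thus low in every control library and high in every Mg-deficient one, with the highest signal in Mg-deficient library 1. WRKY75 (AT5G13080), a regulator of phosphate starvation responses and senescence, had 0 reads in the 5 control libraries and reads in Mg-deficient libraries 1 and 2 only, at least 66.8-fold higher as a group when control is set to a floor of 3 reads over the group. WRKY75 lost its call without Mg-deficient library 2, without any 1 control library and under limma-voom, and its groups overlapped through Mg-deficient library 3. WRKY8 (1.56 ± 0.61) and WRKY23 (−1.36 ± 1.14) were not called.

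In group I, 3 of 7 tested members rose and 1 fell. WRKY25 (AT2G30250), a relative of WRKY33 in stress and heat responses, had a signal of 739.6, 759 and 408 in Mg-deficient leaves, against 56.0, 62.6, 54.8, 51.4 and 62.6 in control leaves. Its control libraries were close to each other and its fold change had the smallest p of the members (3.39 ± 0.26, adjusted p = 1.7e-05, limma). WRKY33 had 298, 77.7 and 126 in Mg-deficient leaves, against 3.29, 3.31, 2.30, 11.9 and 6.25 in control leaves, with the highest signal in Mg-deficient library 1 (4.67 ± 0.61, adjusted p = 4.7e-04, limma). WRKY4 rose by 1.52 ± 0.47. WRKY1 (AT2G04880), singled out after its values were seen as the one member that fell, had 31.0, 10.7 and 12.6 in Mg-deficient leaves, against 53.8, 52.2, 47.2, 51.4 and 65.7 in control leaves, with no overlap (−1.67 ± 0.40, adjusted p = 0.0117, limma). WRKY2, which acts in abscisic acid responses of seeds and seedlings, WRKY3 and WRKY20 had log2 fold changes of −2.12, −1.15 and −1.10 and were not called. The call of WRKY1 was lost, at −1.37 and an adjusted p of 0.0566 (limma), under median-of-ratios scaling. Without Mg-deficient library 1, 2 members were called lower, and without Mg-deficient library 2, 3 were.

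In group IId, whose members bind calmodulin, 3 of 6 rose. WRKY15 (AT2G23320), which acts in osmotic and oxidative stress responses, had a signal of 346.5, 207 and 186 in Mg-deficient leaves, against 26.0, 41.3, 35.7, 31.6 and 43.8 in control leaves, again without overlap (2.72 ± 0.30, adjusted p = 1.9e-04, limma). WRKY11 and WRKY17, a pair of negative regulators of basal defence, rose by 1.77 ± 0.38 and 2.07 ± 0.43. WRKY7, WRKY21 and WRKY39 were at −1.63, 0.16 and 0.54 and were not called. In group IIb WRKY6, a regulator of phosphate transport and senescence, rose by 2.54 ± 0.76 and WRKY47 was at 0.97 ± 0.53, and in group IIe WRKY22, which acts downstream of flagellin perception, was at 0.62 ± 0.65.

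**Figure D3:**
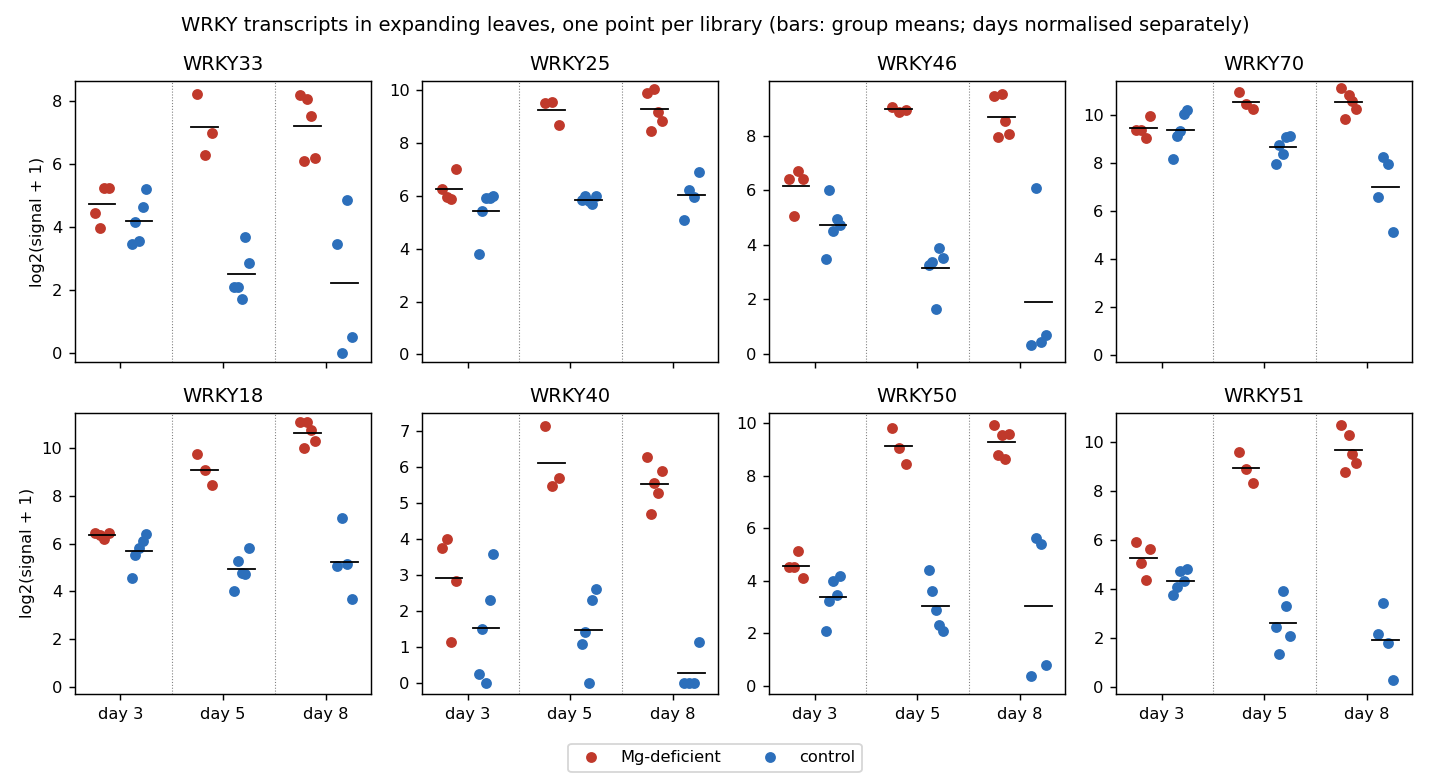
Log2(signal + 1) of 8 WRKY members in expanding leaves, 1 point per library with bars at the group means, Mg-deficient to the left of control on each day; the days were normalised separately, so only the distance between the groups within a day can be read. The groups overlap at day 3 and are separated for all 8 genes at days 5 and 8.

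In expanding leaves at day 8, 24 of 35 tested members rose and 0 fell, where 30.8% of all genes were called higher and 14.9% lower. A single member, WRKY2, was lower with an unadjusted p under 0.05, beside 17.4% of all genes, and limma-voom on recovered reads called 23 higher and 0 lower. The median log2 fold change was 2.77 over the members and 0.63 over all genes. WRKY6, WRKY8, WRKY26, WRKY28, WRKY30, WRKY40, WRKY45, WRKY48, WRKY51, WRKY53, WRKY55 and WRKY75 passed the minimum through the Mg-deficient libraries alone. Of the 23 members with a mean of at least 5 in both groups 13 rose, where 24.7% of such genes did, with a median of 1.95. Under median-of-ratios scaling, which moved the median of all genes from 0.63 to 0.06 and the share of higher calls among all calls from 67.3% to 49.0%, 21 members were higher and WRKY2 was lower (−1.49, adjusted p = 0.00986, limma). WRKY4, WRKY22 and WRKY60 lost their calls under that scaling.

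In group IIc, 7 of 8 tested members rose, but 6 of the 8 passed the signal minimum through the Mg-deficient libraries alone. Among the 2 with a mean of at least 5 in both Mg-deficient and control libraries, 1 rose. WRKY51 had a signal of 1650, 433, 1243, 738 and 573 in Mg-deficient leaves, against 3.41, 9.64, 2.44 and 0.219 in control leaves, and had the smallest p of the members (7.78 ± 0.57, n = 5 and 4, adjusted p = 8.1e-07, limma). WRKY75, WRKY48 and WRKY45 had 0 reads in all 4 control libraries, so that their folds are given over a floor of 3 reads. The bounds of this day cover counting error only, and reads of some members were missing from whole control libraries. WRKY38 had 0, 62, 0 and 0 reads there. WRKY75 had 237, 53.8, 154, 135 and 66.5 in Mg-deficient leaves, at least 154-fold higher, with an adjusted p of 2.1e-06 (limma). WRKY48 (AT5G49520), which acts in basal resistance, had 51.0, 44.8, 73.4, 63.4 and 32.7 in Mg-deficient leaves, at least 63.9-fold higher (adjusted p = 4.2e-06, limma). WRKY45 (AT3G01970), a regulator of phosphate uptake, had 64.0, 32.9, 43.4, 51.9 and 42.7, at least 55.8-fold higher (adjusted p = 4.5e-06, limma). Each Mg-deficient library therefore held reads of these 3 genes and no control library did. WRKY8, which acts in salt and virus responses, and WRKY50 rose by 5.61 and 6.24 on the log2 scale, and WRKY28, which activates the salicylic acid synthesis gene ICS1, was 10.3-fold higher in reads (95% exact interval 3.33 to 51.9, 3 control reads). WRKY23, which acts in auxin-dependent root development, was not called (1.20 ± 0.88).

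In group III, 7 of 7 tested members rose, as did 4 of the 4 with a mean of at least 5 in both Mg-deficient and control libraries. WRKY30 had 216, 34.9, 133, 70.0 and 82.7 in Mg-deficient leaves and 0 in all 4 control libraries, at least 127-fold higher (adjusted p = 4.5e-06, limma), and WRKY55 was at least 121-fold higher. WRKY70 had 2198, 907, 1816, 1517 and 1202 in Mg-deficient leaves, against 93.4, 303, 248.5 and 34.2 in control leaves (3.53 ± 0.53, adjusted p = 1.6e-04, limma). The groups were separated, with the highest control signal in library 2 and the lowest in library 4. WRKY46, WRKY38, WRKY53 and WRKY54 rose by 6.80, 4.76, 4.51 and 2.77 on the log2 scale. Control libraries were uneven for several of these genes. WRKY46, for example, had 0.272, 66.4, 0.365 and 0.640 in control leaves. Without control libraries 3 and 4, which held the fewest detected genes, 27 members were higher and 1 lower.

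In group IIa 3 of 3 members rose, as did 2 of the 2 with a mean of at least 5 in both Mg-deficient and control libraries. WRKY18 had 2206, 1024, 2226, 1744 and 1259 in Mg-deficient leaves, against 32.8, 134, 34.2 and 11.7 in control leaves (5.42 ± 0.52, adjusted p = 6.2e-06, limma). Its groups were separated. WRKY40 had 1 control read and a read ratio of 173 (95% exact interval 30.8 to 6860), and WRKY60 rose by 2.57 ± 0.78. In group I, WRKY33 had 292, 67.7, 264.5, 182 and 71.7 in Mg-deficient leaves, against 10.1, 0, 28.0 and 0.427 in control leaves (5.00 ± 0.92, adjusted p = 7.5e-04, limma). WRKY25 and WRKY4 also rose, by 3.26 and 1.35, and the other 5 group I members, at −0.90 to 1.68, did not pass. In groups IId, IIb and IIe, WRKY15 (2.41), WRKY17 (1.95), WRKY6 (read ratio 71.9, 95% exact interval 24.4 to 350, 3 control reads) and WRKY22 (2.58) rose. WRKY7, WRKY11, WRKY21, WRKY39 and WRKY47, at −1.05 to 1.61, did not.

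In mature leaves the pattern over days was different. At day 5, 0 of 33 tested members were called, as were 0.0% of all genes in either direction, and limma-voom called 0. At an unadjusted p under 0.05 0 members were higher and 6 were lower, against 2.52% and 4.43% of all genes, and the median of the members was −0.50, beside −0.02 over all genes. WRKY22, WRKY23, WRKY30, WRKY40, WRKY45 and WRKY50 passed the minimum through the control libraries alone. Over the 27 members with a mean of at least 5 in both groups the median was −0.30, beside −0.01 over all such genes. WRKY50 had 0.140, 10.5 and 3.12 in Mg-deficient mature leaves, against 8.69, 91.4, 44.9, 46.7 and 89.0 in control leaves, with an overlap through control library 1 (−3.56 ± 0.79, adjusted p = 0.44, limma). WRKY70 had 139, 469 and 195 in Mg-deficient leaves, against 224, 871, 648, 590 and 622 in control leaves, again with an overlap at control library 1 (−1.21 ± 0.39, adjusted p = 0.585, limma). WRKY60, WRKY40, WRKY39 and WRKY18 were the other 4. Without control library 1, 2 members were called lower.

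At day 8 of mature leaves, 8 of 33 tested members rose and 0 fell, where 3.43% of all genes were called higher and 0.173% lower. These calls depended on single libraries: leaving out 1 library at a time gave 0 to 10 higher members, 0 of them without Mg-deficient library 4, and 3 without Mg-deficient library 1 or 3 or without control library 2, 3 or 4. Of the 8, 0 kept their call under every setting. The median of the members was 2.18 and that of all genes 0.91, and under median-of-ratios scaling these were 0.80 and −0.63, with 6 members higher and the share of higher calls among all calls at 35.9% instead of 95.2%. The 9 members WRKY30, WRKY31, WRKY33, WRKY40, WRKY46, WRKY48, WRKY51, WRKY53 and WRKY75 passed the minimum through the Mg-deficient libraries alone. Of the 24 members with a mean of at least 5 in both groups 3 rose, where 1.79% of such genes did. Mg-deficient libraries lay above all control libraries for 11 of 33 members and for 9.56% of all genes.

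WRKY50 had 184, 57.3, 227 and 363 in Mg-deficient mature leaves at day 8, against 24.9, 0.613, 3.99 and 0.0409 in control leaves (5.49 ± 1.03, n = 4 each, adjusted p = 0.00332, limma). The lowest Mg-deficient library was above the highest control library. WRKY51 had 35.8, 23.4, 54.3 and 184 in Mg-deficient leaves and 0 in the control libraries, at least 115-fold higher (adjusted p = 0.00923, limma). WRKY46 had 58.4, 23.4, 100.3 and 115 in Mg-deficient leaves, against 0, 10.2, 0.220 and 0.0138 in control leaves (5.06 ± 1.24, adjusted p = 0.0262, limma). These 3 genes were thus higher in every Mg-deficient library than in any control library, and highest in Mg-deficient library 4.

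WRKY33 had 3.22, 38.2, 51.8 and 68.6 in Mg-deficient mature leaves, against 0.740, 0.0252, 0.0281 and 0.00181 in control leaves. With 1 control read, its read ratio was 174 (95% exact interval 31.0 to 6920; adjusted p = 0.0336, limma). WRKY18 had 228, 116, 203 and 721.5 in Mg-deficient leaves, against 119, 1.79, 92.5 and 23.8 in control leaves, so that the groups overlapped at Mg-deficient library 2 and control library 1 (3.08 ± 0.82, adjusted p = 0.0339, limma). WRKY40 had 2.95, 44.1, 6.08 and 14.6 in Mg-deficient leaves and 0 in the control libraries, at least 18.1-fold higher (adjusted p = 0.0481, limma). WRKY53, with a read ratio of 92.4 (95% exact interval 25.3 to 767, 2 control reads), and WRKY70 (1.98 ± 0.58) were just under the threshold. Under median-of-ratios scaling WRKY18, WRKY46 and WRKY70 lost their calls, at 1.39, 3.65 and 0.20 with adjusted p of 0.354, 0.0641 and 0.914 (limma). WRKY31, which was not called (adjusted p = 0.0744, limma), had 0 control reads and was at least 17.6-fold higher.

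The 8 members that rose in mature leaves at day 8, WRKY18, WRKY33, WRKY40, WRKY46, WRKY50, WRKY51, WRKY53 and WRKY70, also rose in expanding leaves at both days 5 and 8. Between the days of expanding leaves, 17 members rose at both, which is 94.4% of those of day 5 and 70.8% of those of day 8. Of all genes, 13.7% and 30.8% were called higher in expanding leaves at days 5 and 8, and 3.43% in mature leaves at day 8. The same overlaps over all genes are not given here, so these overlaps cannot be read as particular to the members. WRKY11 rose at day 5 only, and WRKY8, WRKY22, WRKY28, WRKY45, WRKY48, WRKY54 and WRKY60 rose at day 8 only, as calls. The differences themselves were tested next, since a call on 1 day and not on the other does not show a difference.

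Expanding and mature leaves differed in their responses at day 5 for 13 of 30 members tested in both, 12 with the higher fold change in expanding leaves and 1 (WRKY1) with the lower, where 20.8% of all genes differed. The median difference of log2 fold changes, expanding minus mature, was 1.92 over the members and −0.32 over all genes. The greatest was that of WRKY50, at 6.05 in expanding and −3.56 in mature leaves (difference 9.61 ± 0.97, adjusted p = 1.2e-07, limma fits of both tables). WRKY18 (5.31 ± 0.62), WRKY46 (6.48 ± 0.78) and WRKY25 (3.20 ± 0.47) had the next smallest p. WRKY70, WRKY51, WRKY33, WRKY15, WRKY40, WRKY30, WRKY38 and WRKY75 also differed. In mature leaves WRKY30, WRKY40 and WRKY50 passed the signal minimum through the control libraries alone. In expanding leaves WRKY30, WRKY38, WRKY40 and WRKY75 passed it through the Mg-deficient libraries alone. The minimum thus favoured a positive difference for these members. A count limited to members with a mean of at least 5 in both groups was not made. At day 8 the median difference was 1.39 over the members and −0.40 over all genes, and only WRKY48, at 5.70 in expanding and 1.59 in mature leaves (difference 4.11 ± 1.26, adjusted p = 0.042, limma), differed among 31 members, where 5.95% of all genes did. This call was lost without Mg-deficient library 1, 3 or 4 of expanding leaves, without Mg-deficient library 1, 2 or 3 or control library 1 of mature leaves, and under limma-voom. WRKY48 passed the signal minimum through the Mg-deficient libraries alone in both leaf types at day 8. It had 0 reads in every control library of expanding leaves. Without control library 2 of expanding leaves or control library 3 of mature leaves 2 members differed, and without control libraries 2, 3 and 4 of mature leaves 6 did.

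**Figure D4:**
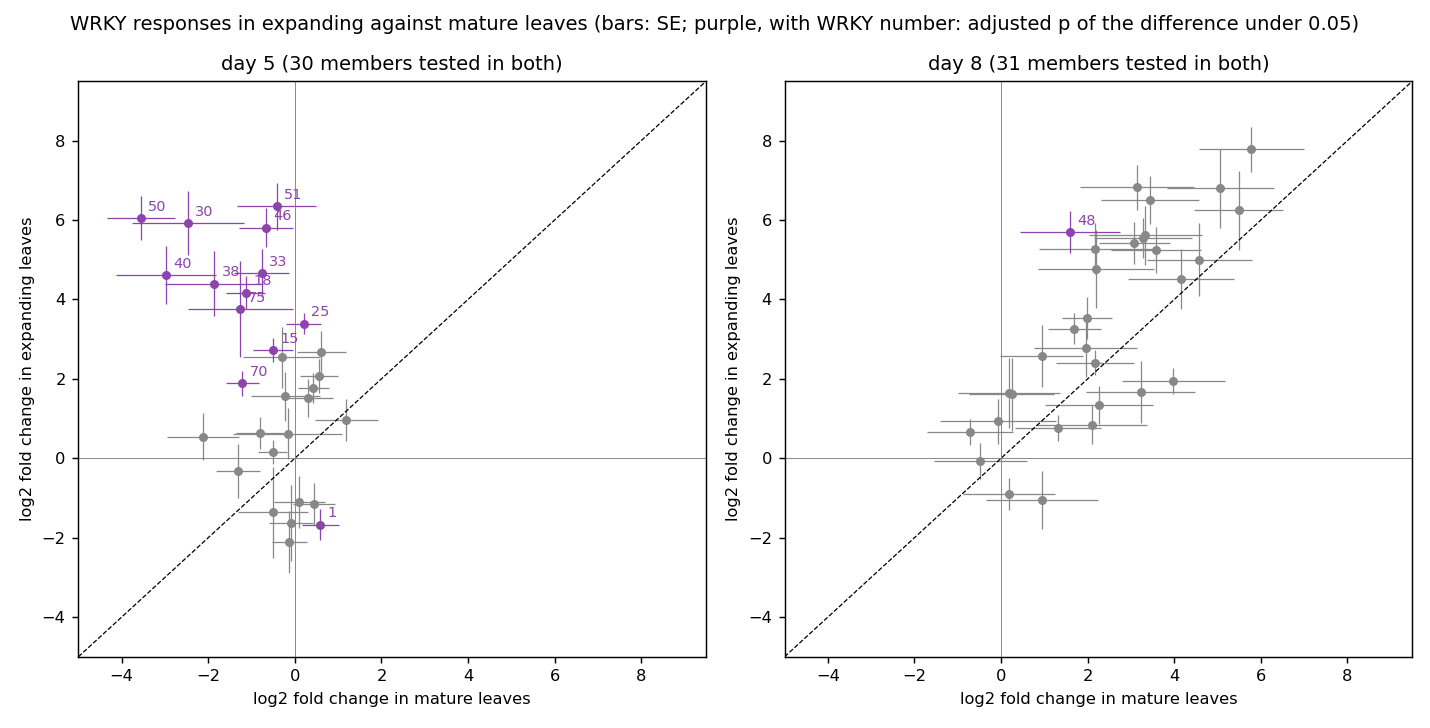
Log2 fold change (Mg-deficient over control) of each WRKY member in expanding leaves (vertical axis) against mature leaves (horizontal axis) at days 5 and 8, with bars of 1 SE; the dashed line marks equal values, and members whose difference had an adjusted p under 0.05 are purple with their WRKY number. At day 5, 13 of 30 members are marked and 12 of these lie above the line, and at day 8 WRKY48 alone is marked.

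Within expanding leaves, the fold change at day 5 differed from that at day 3 for 12 of 27 members, 11 higher at day 5 and WRKY1 lower, where 17.9% of all genes differed. WRKY51 (difference 5.44), WRKY46 (4.4), WRKY50 (4.86) and WRKY18 (3.49) had the smallest p. WRKY38, also among the 11, passed the signal minimum of day 5 through the Mg-deficient libraries alone. Between days 8 and 5, 2 of 31 members differed, WRKY8 (4.05 higher at day 8) and WRKY1 (3.35 higher at day 8), where 16.7% of all genes differed, and 8 of 31 had an unadjusted p under 0.05, as did 33.2% of all genes. For WRKY1 this was the difference between 1.68 at day 8, which was not called, and −1.67 at day 5. WRKY8 passed the signal minimum through the Mg-deficient libraries alone on both days. The count of differing members was 8 without control library 2 and 5 without control library 3 of day 8, and 6 without Mg-deficient library 1 of day 5. The fold changes of roots and expanding leaves at day 3 differed for 0 of 23 members (2 at an unadjusted p under 0.05, beside 5.31% of all genes, and 0 by limma-voom), where 0.0073% of all genes differed.

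Genes tied to the WRKY family in earlier work were taken as 3 lists, which were drawn up with results of these data known. Of 10 genes of the MAP kinase cascades that phosphorylate WRKY proteins, 8 of 10 rose in expanding leaves at day 5, beside 13.7% of all genes, among them the kinases MPK11 (5.79 ± 0.53), MPK3 (1.86 ± 0.23) and MEKK1 (1.86 ± 0.29), with a median of 1.57 over the list. At day 8 of expanding leaves 7 of 10 rose, beside 30.8% of all genes, including MKK4 (3.49 ± 0.39), MPK11 (6.44 ± 0.97) and MKK5 (2.59 ± 0.45), and 4 of 10 did under median-of-ratios scaling. In mature leaves at day 8 MPK11 alone was called (4.93 ± 1.26), beside 3.43% of all genes, and it passed the signal minimum through the Mg-deficient libraries alone, and 0 were called in the other 4 tables.

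Of 9 VQ-motif genes, whose proteins bind WRKY domains, 5 of 7 tested rose in expanding leaves at day 5, beside 13.7% of all genes, among them SIB1 (3.81 ± 0.31), JAV1 (4.81) and VQ10 (5.06 ± 0.71). At day 8, 5 of 7 rose, beside 30.8% of all genes, including JAV1 (7.02 ± 0.82), SIB1 (3.31) and VQ10, which had 0 control reads and was at least 57.3-fold higher. On each of these days 2 of the 7 passed the minimum through the Mg-deficient libraries alone. Of the 5 with a mean of at least 5 in both groups 3 rose on each day, where 12.3% and 24.7% of such genes did. None of the 7 was called in mature leaves at day 8, where 2 were higher at an unadjusted p under 0.05, as were 18.3% of all genes. Of 17 genes described as WRKY targets, 10 of 10 tested rose in expanding leaves at day 5, 13 of 14 at day 8 and 8 of 12 in mature leaves at day 8, beside 13.7%, 30.8% and 3.43% of all genes. Of the targets, 5, 8 and 6 passed the minimum through the Mg-deficient libraries alone. Of those with a mean of at least 5 in both groups 5 of 5, 5 of 5 and 4 of 6 rose, where 12.3%, 24.7% and 1.79% of such genes did. Their medians were 4.13, 7.49 and 3.89 on the log2 scale. AOX1A, the mitochondrial alternative oxidase, rose by 5.27 in expanding leaves at day 5 and by 6.40 ± 1.05 in mature leaves at day 8. PAD3, which makes the last step of camalexin synthesis, rose by 8.86 in expanding leaves at day 8 and by 4.95 ± 1.0 in mature leaves at day 8. OM66, a mitochondrial outer membrane protein, rose by 7.46 ± 0.48 in expanding leaves at day 5 and by 4.24 ± 0.90 in mature leaves at day 8, and ACS2, an ethylene synthesis enzyme, had 0 control reads and was at least 125-fold higher in expanding leaves at day 8. PBS3, an enzyme of salicylic acid synthesis, rose by 7.72 and 7.75 in expanding leaves at days 5 and 8. No gene of the 3 lists was called lower in any table, but 1 target gene was lower in expanding leaves at day 8 under median-of-ratios scaling. Of the 30 WRKY loci outside the 42, 2 of 7 tested rose in expanding leaves at day 5 and 3 of 8 at day 8, beside 13.7% and 30.8% of all genes, and 0 in the other 5 tables. These 2 and 3 loci passed the minimum through the Mg-deficient libraries alone. Of the 5 with a mean of at least 5 in both groups 0 rose on either day, where 12.3% and 24.7% of such genes did.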

How the data were processed

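The 7 deposited tables, 1 for each tissue and day, hold signal values that the authors made by adjusting read counts to a common library size. The authors' notes name R 3.5.0 and the TAIR10 build, and the counting tool's strand setting is not given in the sources used here. Inverting the quantile adjustment (dispersion 0.05) returned whole reads for 99.5 to 100.0% of values per table, within 0.001 of the signal. These reads gave depth, floors (3 reads over a group) and exact 95% intervals. The intervals and the folds over a floor cover counting error only, not reads missing from a whole library. The p-values measure the spread between pooled samples.

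Genes whose signal averaged at least 5 in a table were fitted on log2(signal + 1) with limma 3.58.1 (R 4.3.3, trended eBayes), with Benjamini-Hochberg adjustment over all tested genes and a threshold of 0.05. Differences between tables were tested on both fits with Satterthwaite degrees of freedom, with the tables taken as independent. Tissues of the same day may share plants, and these p-values do not take that into account. Promoters, domains and overlaps came from the RefSeq TAIR10.1 assembly and annotation (Biopython 1.88).

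The members and gene lists were chosen with earlier results of these data known. Values per library are given for up to 6 called members with the smallest p per table, and for WRKY33 and WRKY70 in expanding leaves. Up to 3 called genes per list and table are named. Alternatives were other pseudocounts, signal minimums and scaling, a replicate block, left-out libraries, an unadjusted threshold and, chosen after seeing the data, limma-voom on recovered reads and the fits without sets of control libraries in expanding leaves or in the difference test at day 8.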

Additional observations from a re-analysis of the deposited data

Results flagged for a closer look

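In the control mature leaves at day 8, 1 library was flagged as far from the other 3 in signal for 3 members: WRKY50 in library 1 (signal 24.9), WRKY46 in library 2 (10.15) and WRKY33 in library 1 (0.740). For WRKY33 this was 1 read in library 1 and 0 reads in each other control library, so its flag rests on a single read. The flagged values were 3 of 34 group and gene combinations examined. The rule flags about 1 in 20 by chance, a rate that was not checked for values near 0 reads. Control libraries 2 to 4 of this table were those with few detected genes.

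The other results set apart are tested differences of log2 fold changes between tables. Expanding minus mature leaves at day 5 gave 9.61 for WRKY50, 8.4 for WRKY30, 7.60 for WRKY40, 6.77 for WRKY51, 6.48 for WRKY46, 6.26 for WRKY38, 5.44 for WRKY33, 5.31 for WRKY18, 5.02 for WRKY75, 3.22 for WRKY15, 3.20 for WRKY25, 3.10 for WRKY70 and −2.25 for WRKY1. Of these members, WRKY30, WRKY38, WRKY40, WRKY50 and WRKY75 passed the signal minimum of a table through a single group. At day 8 the difference was 4.11 for WRKY48, which passed the minimum through the Mg-deficient libraries alone in both leaf types. In expanding leaves, day 5 minus day 3 gave 5.44 for WRKY51, 4.86 for WRKY50, 4.4 for WRKY46, 4.15 for WRKY33, 3.49 for WRKY18, 3.31 for WRKY38, 2.70 for WRKY15, 2.54 for WRKY25, 2.20 for WRKY17, 2.09 for WRKY11, 1.82 for WRKY70 and −2.0 for WRKY1. Day 8 minus day 5 gave 4.05 for WRKY8 and 3.35 for WRKY1. In these comparisons of days, WRKY38 at day 5 and WRKY8 at days 5 and 8 passed the minimum through the Mg-deficient libraries alone.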

How the results depend on the processing

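No call of a member reversed in any setting. Of the called members, 14 of 19 in expanding leaves at day 5, 21 of 24 at day 8 and 0 of 8 in mature leaves at day 8 kept their call in every setting. Median-of-ratios scaling gave 0 instead of 1 lower member in expanding leaves at day 5, 1 instead of 0 at day 8, and 3 instead of 1 differences between expanding and mature leaves at day 8. With no signal minimum, 4 members were higher in mature leaves at day 8, 1 was lower in expanding leaves at day 8, and 2 and 5 differed between leaf types at day 8 and between days 8 and 5. With a minimum of 20 these last counts were 0 and 1, and 4 members were higher in mature leaves at day 8. A pseudocount of 5 gave 3 differences between leaf types at day 8, and limma-voom gave 0. An unadjusted p under 0.01 gave 13 higher members in mature leaves at day 8 and 2 lower at day 5, beside 8.04% and 1.09% of all genes. It also gave 1 higher in expanding leaves at day 3, beside 1.36% of all genes. In roots it gave 1 higher and 1 lower, beside 215 and 360 of 16905 genes. Without control libraries 2, 3 and 4 of mature leaves at day 8, 2 members were higher and 6 differed between leaf types, and without control libraries 3 and 4 of expanding leaves at day 8, 1 was lower.

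Leaving out 1 library at a time gave 0 to 10 higher members in mature leaves at day 8, 0 to 2 lower at day 5, and 1 to 3 lower in expanding leaves at day 5. Differing members ranged from 0 to 2 between leaf types at day 8 and from 2 to 8 between days 8 and 5. Higher members ranged from 15 to 18 in expanding leaves at day 5 and from 21 to 26 at day 8. Replicate numbers did not pair the libraries, whose deviations correlated at −0.10 to 0.17. With a replicate block, 14, 22 and 9 members were higher in expanding leaves at days 5 and 8 and in mature leaves at day 8, with 0 lower in expanding leaves at day 5 and 1 lower in mature leaves at day 5. The deposited values are signal rather than counts. An edgeR alternative was not run, and limma-voom was run on the recovered reads instead. Except where a value here shows it, the cause of a changed call was not tested. Depth limits weakly read members most, since 3 reads set the floor.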
